A study of Mus musculus with 6 samples.

Results

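The outer dense fibre and fibrous sheath genes described here are Odf1, Odf2, Odf3, Odf4, Oaz3, Akap3, Akap4, Fsip2, Ropn1 and Cabs1. They were chosen by gene symbol, and all 10 were found among the 32285 genes of the mouse testis matrices. Their levels were followed through 8 ordered spermatid stages, in cells outside the spermatid lineage, and between nicotine-exposed and control mice.

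The sperm tail is driven by an axoneme, and cytoskeletal layers surround it. Outer dense fibres run along the midpiece and principal piece outside the axonemal doublets, and the fibrous sheath, made of longitudinal columns and ribs, encloses the principal piece. The sheath anchors protein kinase A and glycolytic enzymes through A-kinase anchoring proteins. Both layers are built during spermiogenesis, when the haploid spermatid elongates, its histones are exchanged for transition proteins and then protamines, and transcription comes to an end before the last proteins are made.

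The tested mice were 3 C57BL/6J males given nicotine at 200 µg/mL in drinking water for 8 weeks from 3 weeks of age, and the controls were 3 C57BL/6J males given normal drinking water. Sampling took place at 11 weeks in all 6. From each mouse the testes were dissociated together, and 1 droplet library (10x 3′ v3 chemistry) was made from the suspension, so a mouse is the replicate and n = 3 in each group. The libraries held 67853893, 73596886 and 68528823 unique molecular identifiers (UMIs, each standing for 1 captured transcript) in nicotine mice, against 88329607, 75923816 and 83740650 in control mice.

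After filtering, 61945 cells remained, from 9848 to 11008 per mouse. They fell into 33 clusters, formed without the 10 genes and without 28 related genes, and a cluster was called "-like" a cell type from its marker genes. The spermatid stages are 4 round spermatid-like clusters (stages 1 to 4) followed by 4 elongating spermatid-like clusters (stages 5 to 8), ordered by transition protein and late spermatid markers that include none of the 10 genes. Each stage held at least 210 cells in every mouse. Stage 8 rested on 4 of the 10 elongating spermatid markers, namely Prm2, Prm3, Lelp1 and Smcp. The median number of UMIs per cell was 16950, 17670, 4568, 19142, 11536, 8095, 4461 and 2718.5 in stages 1 to 8, so stage 3 was far shallower than its neighbours. Levels are therefore given as CPM, which sets the UMIs of a gene against all UMIs of the stage, and, where the direction differs, also as UMIs per cell. A rise in CPM is a larger share of the stage's transcripts and need not be more molecules per cell. Any pair of libraries shared 25 to 54 cell barcodes, 0.216% to 0.467% of cells.

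The 10 genes did not share a time course. Fsip2 was highest in the first stage, Odf3, Akap3 and Ropn1 were highest in CPM in stages 2 to 5 and low at the end, and Odf2, Akap4, Odf1, Oaz3 and Cabs1 took their largest share of UMIs in the last 2 stages. Of the 70 steps between neighbouring stages, 67 passed the exact two-sided sign-flip permutation test over the 6 mice, with an adjusted p of 0.0326. Their unadjusted p in that sign-flip permutation test was 0.03125, the smallest that 6 mice allow. With any 1 mouse left out no step could pass, since this exact test with 5 mice cannot go below p = 0.0625. In the shallow stage 3, 8 genes were lower in CPM than in stage 2 and higher again in stage 4, all but Fsip2 and Odf4. With stage 3 left out, 57 of 60 steps passed (exact sign-flip permutation test, adjusted p = 0.0329), and the steps between stages 2 and 4 ran from −1.72 for Fsip2 to 1.62 for Cabs1 on the log2 scale.

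**Figure D1:**
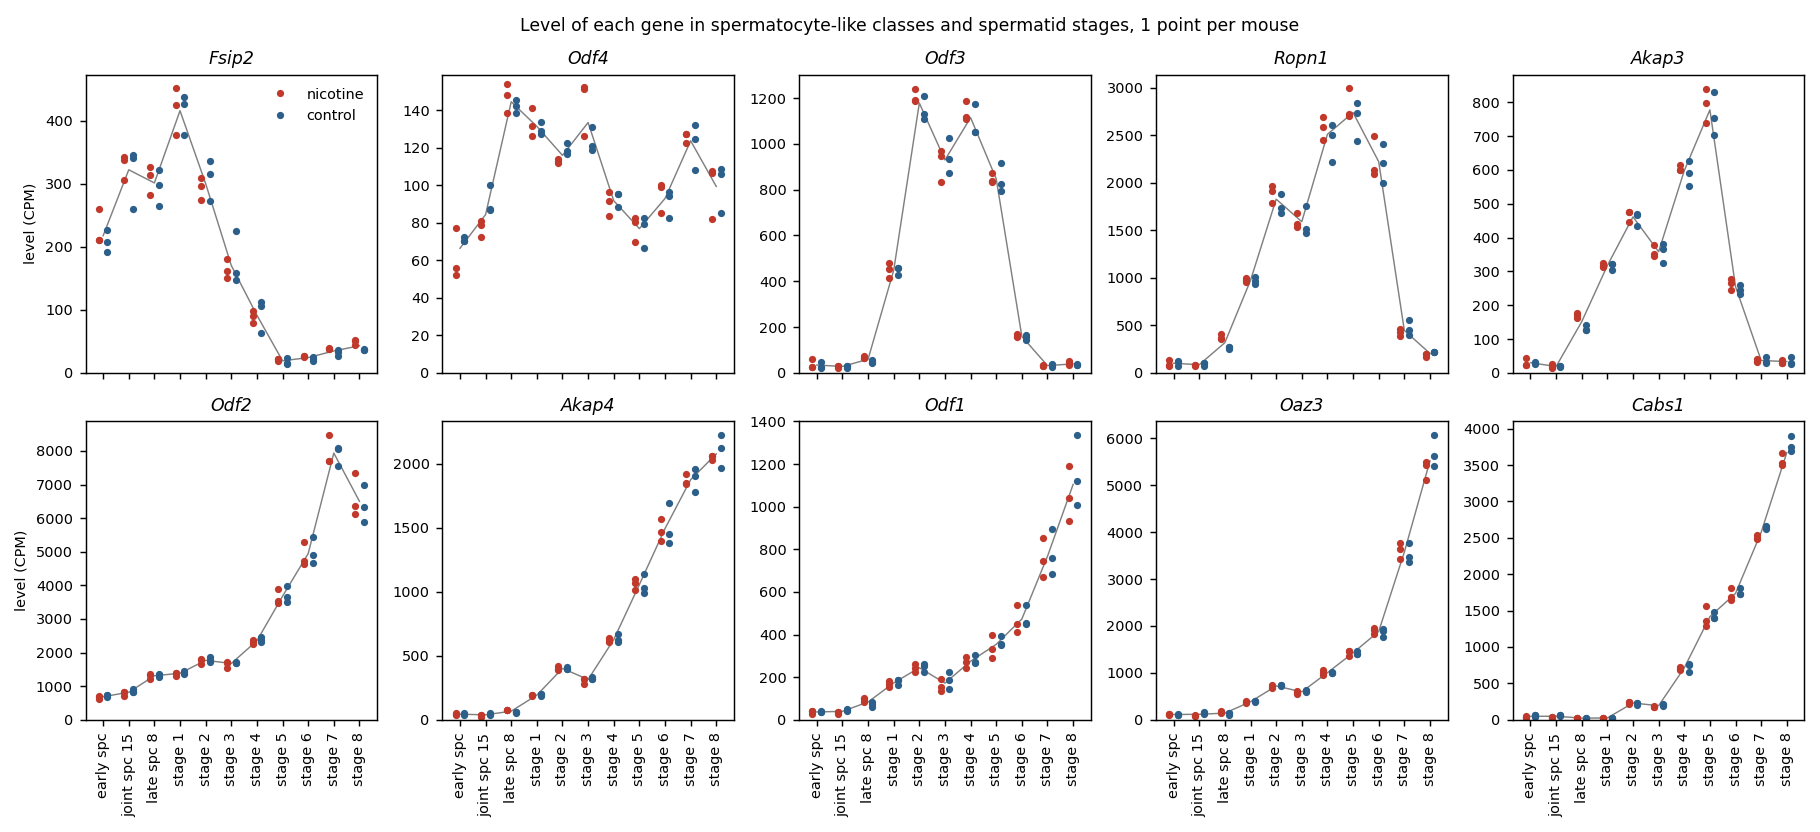
Level of each gene in CPM (vertical axis, its own scale in each panel) in early spermatocyte-like cells, joint spermatocyte-like cluster 15, late spermatocyte-like cluster 8 and spermatid stages 1 to 8 (horizontal axis), 1 point per mouse with nicotine mice in red left of control mice in blue, and a grey line through the mean of the 6 mice. Fsip2 was already high in spermatocyte-like cells, Odf3 and Akap3 dropped between stages 5 and 6, and Oaz3 and Cabs1 were highest in stage 8.

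Akap3 and Akap4 encode the A-kinase anchoring proteins of the fibrous sheath, and AKAP4 is its most abundant protein. Akap3 lies at chr6:126853098-126874308 on the plus strand and Akap4 at chrX:7067519-7078609 on the plus strand (GRCm38). Among the RefSeq promoter windows of the 10 genes (GRCm38.p6, 250 bases before to 50 after a start; 12 windows for 8 genes, with Odf1 and Oaz3 unmatched), the longest run shared by 2 genes was 20 bases and joined Akap3 to Akap4. The windows chr6:126852848-126853147 and chrX:7067265-7067564, plus strand, are shown because of that run, which is in capitals:
Akap3: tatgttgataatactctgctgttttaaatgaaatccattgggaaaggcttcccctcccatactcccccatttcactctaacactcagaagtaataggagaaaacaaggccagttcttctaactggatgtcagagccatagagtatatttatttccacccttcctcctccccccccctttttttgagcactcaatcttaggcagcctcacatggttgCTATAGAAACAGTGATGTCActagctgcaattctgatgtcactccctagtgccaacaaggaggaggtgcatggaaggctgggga
Akap4: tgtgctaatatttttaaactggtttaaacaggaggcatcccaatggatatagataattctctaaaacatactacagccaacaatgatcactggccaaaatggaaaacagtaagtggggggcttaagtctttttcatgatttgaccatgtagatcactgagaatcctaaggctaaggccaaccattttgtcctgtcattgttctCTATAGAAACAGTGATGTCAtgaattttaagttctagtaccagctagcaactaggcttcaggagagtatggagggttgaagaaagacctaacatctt

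The run CTATAGAAACAGTGATGTCA lay 34 to 15 bases upstream of the start in Akap3 and 47 to 28 bases upstream in Akap4. It was found in 2 of the 32851 promoter windows, those of Akap3 and Akap4. The next longest run shared by another pair of the genes was 14 bases, between Odf2 and Akap3. The run ends in TGATGTCA, a variant of the cyclic AMP response element, which was in 3.62% of all windows on either strand and in 2 of the 12 windows of the 10 genes, 1 each of Akap3 and Akap4. The full element TGACGTCA was in 1.79% of all windows and in 0 of the 12. Its first letters TGACG were in 20.8% of all windows and, among the genes, in those of Odf2 and Fsip2. The letters GTTGC, found in sites of RFX factors, were in 35.2% of all windows and in those of Odf3, Akap3 and Akap4. These matches describe letters in a window and say nothing of binding.

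The anchoring protein genes with that shared run had different time courses. Akap3 was highest in stage 5, at 798, 841 and 739.6 CPM in nicotine mice and 704, 829 and 754 CPM in control mice. In stage 6 it was at 279, 267 and 245 CPM in nicotine mice and 233, 261 and 245 CPM in control mice. The groups overlapped in both stages. The step between stages 5 and 6 was −1.60 on the log2 scale (SD 0.0541, n = 6), and the next step was −2.78, so that Akap3 had fallen to 36.6 ± 6.11 CPM in stage 7 (SD, n = 6). In UMIs per cell Akap3 was highest in stage 4 in 6 of 6 mice, at 14.1 ± 1.09, and was at 9.63 ± 0.659 in stage 5, a step of −0.55 on the log2 scale.

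Akap4 was higher as a share of UMIs in the stages in which Akap3 was low. It was at 1493 ± 118 CPM in stage 6, 1874.5 ± 63.6 in stage 7 and 2075 ± 87.1 in stage 8 (SD, n = 6). In stage 8 it was at 2057, 2056 and 2026 CPM in nicotine mice, against 1968.5, 2219.7 and 2125 CPM in control mice. The groups overlapped, and all 6 mice had their highest level in stage 8. The step between stages 7 and 8 was 0.15 on the log2 scale, and it reversed to −0.26 when the 10 genes and the related genes entered the clustering. Along a finer order of the same cells in 20 windows, Akap4 was highest in window 18 or 19 and lower again in window 20 in 6 of 6 mice. In window 20 it was at 1717, 1883 and 1779 CPM in nicotine mice, against 1659, 2074 and 2027 CPM in control mice. In UMIs per cell Akap4 was highest in stage 4, at 14.8 ± 1.54, and was at 6.62 ± 0.555 in stage 8. Across 15 cell classes, the Pearson correlation of the mean log2(CPM + 1) levels of Akap3 and Akap4 was 0.41, a description over classes of the same 6 libraries.

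Ropn1 encodes ropporin, which binds A-kinase anchoring proteins in the fibrous sheath, and lies at chr16:34649921-34678618 on the plus strand. It was highest in stage 5 in 6 of 6 mice, at 2704, 2994 and 2725 CPM in nicotine mice, against 2739, 2836 and 2441 CPM in control mice. The groups overlapped. The step from stage 6 to stage 7 was −2.32 (SD 0.115, n = 6), and in stage 7 Ropn1 was at 388, 462 and 431 CPM in nicotine mice, against 452, 557 and 395 CPM in control mice. Ropn1 in stage 6 still held 2223 ± 191 CPM, where Akap3 held 255 ± 16.8 (SD, n = 6). In UMIs per cell Ropn1 was highest in stage 4 in 6 of 6 mice, at 59.2 ± 6.995, and was at 34.0 ± 3.15 in stage 5, a step of −0.80 on the log2 scale.

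Fsip2 encodes a large fibrous sheath interacting protein needed in humans for normal sheath assembly, and lies at chr2:82943634-83008937 on the plus strand. It was the earliest of the 10 genes. In stage 1 it was at 452, 426 and 377 CPM in nicotine mice, against 378, 438 and 427 CPM in control mice, and the groups overlapped. It fell at each step to stage 5, most between stages 4 and 5, at −2.20 on the log2 scale (SD 0.369, n = 6), and was at 19.2 ± 3.99 CPM in stage 5. In stage 8 its share of UMIs was 43.0 ± 7.10 CPM, while its UMIs per cell were lower at each stage after stage 4, at 0.136 ± 0.0183 in stage 8 and 8.97 ± 1.29 in stage 1.

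Cabs1 encodes a calcium-binding protein of elongate spermatids and the sperm principal piece, and lies at chr5:87979439-87981544 on the plus strand, overlapped by Gm28434 on the same strand. It showed the widest range over the stages, with 149 times the CPM in stage 8 as in stage 1. In stage 8 it was at 3496, 3663 and 3526 CPM in nicotine mice, against 3905.5, 3687 and 3750.0 CPM in control mice. The groups did not overlap, and their test is given with the comparison of nicotine and control mice. Its largest step was the first, at 3.19 on the log2 scale (SD 0.228, n = 6), from 24.6 CPM in stage 1. Late spermatocyte-like cluster 8 had 23.2 CPM of Cabs1 in nicotine mice and 21.8 CPM in control mice. The part of free RNA in such low levels, on which the first step and the range rest, was not tested. In UMIs per cell Cabs1 was highest in stage 5, at 17.6 ± 1.95, and was at 11.7 ± 1.34 in stage 8.

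Odf1 and Odf2 encode the main structural proteins of the outer dense fibres, and ODF2 also has forms at the centrosome of other cells. Odf1 lies at chr15:38219203-38226735 and Odf2 at chr2:29889221-29931746, both on the plus strand. Odf2 in stage 7 was at 7712, 8485 and 7687 CPM in nicotine mice, against 7565, 8072 and 8102 CPM in control mice. Its step from stage 7 to stage 8 was −0.29 (SD 0.0700, n = 6), which brought it to 6501 ± 549 CPM. Odf1 had no such fall. Its share of UMIs was largest in stage 8, at 1193, 931 and 1041 CPM in nicotine mice, against 1119.7, 1008 and 1335 CPM in control mice. The groups overlapped for both genes. In UMIs per cell both were highest in stage 4 in 6 of 6 mice, Odf1 at 6.48 ± 0.783 and Odf2 at 55.5 ± 6.54 (SD, n = 6).

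Odf3 encodes an outer dense fibre protein and lies at chr7:140847805-140851018 on the plus strand. It had the widest range of the Odf genes, with 37.1 times the CPM in stage 2 as in stage 7. Odf3 in stage 2 was at 1193, 1242 and 1186 CPM in nicotine mice, against 1131, 1208 and 1109 CPM in control mice, with overlap. Its first step was 1.39 on the log2 scale (SD 0.0887), and its steps after stage 5 were −2.41 (SD 0.0408) and −2.30 (SD 0.253, n = 6). Its last step, 0.29, did not pass (exact sign-flip permutation test, adjusted p = 0.0951). UMIs per cell of Odf3 were at 26.3 ± 2.38 in stage 4 and 0.125 ± 0.0192 in stage 8.

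Odf4 encodes another outer dense fibre protein and lies at chr11:68921835-68927081 on the minus strand. It varied least, by 1.74 times in CPM over the stages. It was at 131 ± 5.43 CPM in stage 1, 134 ± 14.8 in stage 3, 77.0 ± 6.93 in stage 5, 124 ± 8.22 in stage 7 and 99.4 ± 12.3 in stage 8 (SD, n = 6). Single mice had their highest level anywhere between stages 1 and 7. Its UMIs per cell were highest in stage 1, at 2.83 ± 0.351, and lowest in stage 8, at 0.318 ± 0.0556, with no second maximum after stage 4.

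Oaz3 encodes the testis antizyme of ornithine decarboxylase, whose product in the mouse is also needed for the tight joining of sperm head and tail, and lies at chr3:94432414-94443915 on the minus strand. It rose as a share of UMIs at every step but that into stage 3, most between stages 6 and 7, at 0.92 (SD 0.0269, n = 6), and at the first step, at 0.90 (SD 0.0515). In stage 8 it was at 5487, 5117 and 5431 CPM in nicotine mice, against 5406, 5613 and 6061 CPM in control mice, with overlap. In UMIs per cell it was highest in stage 4, at 23.7 ± 2.32, then at 15.9 ± 1.00 in stage 6, 16.8 ± 1.36 in stage 7 and 17.6 ± 1.37 in stage 8.

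The share of UMIs and the number of UMIs per cell thus parted after stage 4, where the cells' UMI totals fell. In 25 of the 67 steps that passed in CPM, the change in UMIs per cell had the opposite sign, among them all 4 steps of Odf1 and of Akap4 after stage 4. UMIs per cell in stage 8, as a percent of the highest stage, separated the genes. They were 74.3% for Oaz3, 66.6% for Cabs1, 54.2% for Odf1, 44.8% for Akap4 and 37.4% for Odf2. They were 11.2% for Odf4, 1.52% for Fsip2, 1.10% for Ropn1, 0.753% for Akap3 and 0.476% for Odf3. Fewer transcripts in a cell and poorer capture from condensed cells cannot be told apart here.

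**Figure D2:**
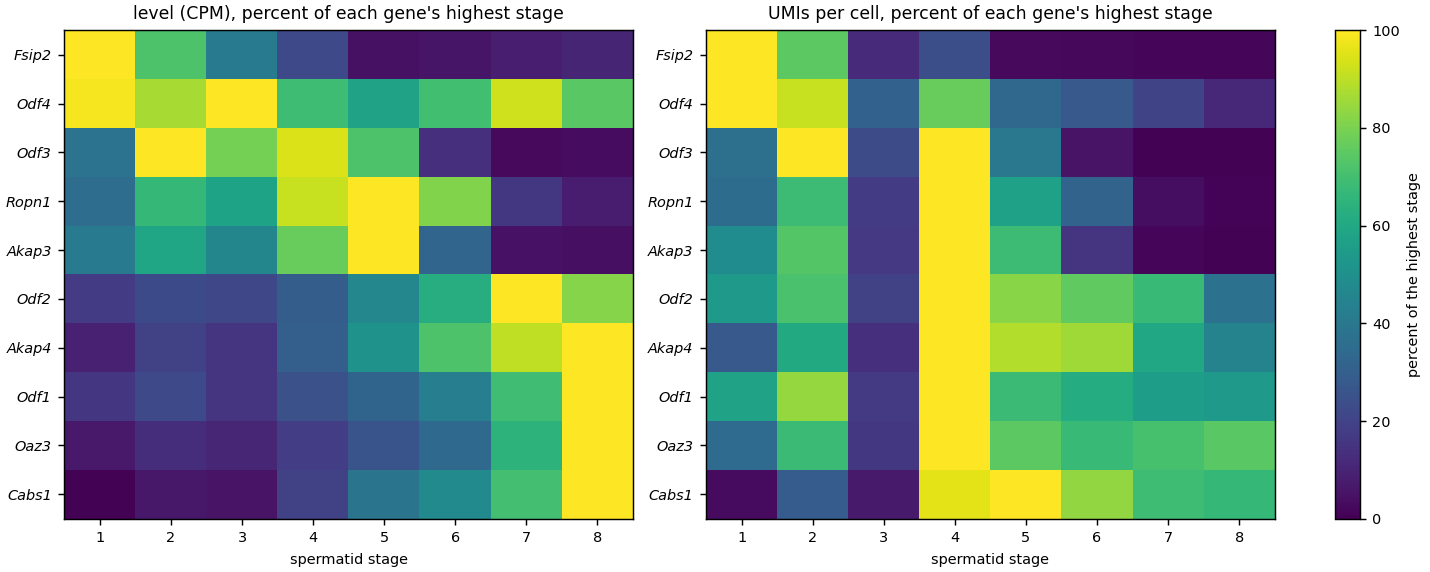
Level of each gene (rows) in spermatid stages 1 to 8 (columns) as a percent of its own highest stage, mean of the 6 mice, for CPM (left) and for UMIs per cell (right). In CPM 5 genes were highest in stages 7 or 8, while in UMIs per cell no gene was highest after stage 5, the shallow stage 3 was low for all 10 genes, and Oaz3, Cabs1 and Odf1 kept the largest percents in stage 8.

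A low-UMI cluster (cluster 2, 4585 cells, median 1270 UMIs) carried only Lelp1 and Smcp of the elongating spermatid markers and was left unnamed and outside the stages. There Oaz3 was at 9015 ± 626 CPM, Odf1 at 2204 ± 258 and Cabs1 at 4287 ± 294 (SD, n = 6), above their stage 8 means. Akap4 was at 427 ± 54.7 CPM, below its stage 8 mean.

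Timing was also measured within a finer order, in which the 24303 cells of the 8 stages were divided into 20 windows and each gene was given its CPM-weighted mean window in each mouse. Mean positions over the 6 mice were 5.05 for Fsip2, 6.37 for Odf3, 7.40 for Akap3, 8.77 for Ropn1, 10.20 for Odf4, 13.31 for Odf2, 13.82 for Akap4, 13.95 for Odf1, 14.82 for Oaz3 and 14.96 for Cabs1. Every gene lay later than its predecessor in 6 of 6 mice, and the ranges of neighbours over the mice overlapped for 2 of the 9 neighbouring pairs, Akap4 with Odf1 and Oaz3 with Cabs1. The order of the means was the same with stage 3 left out. The middle position of Odf4 averages levels from both ends of the order and marks no peak.

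**Figure D3:**
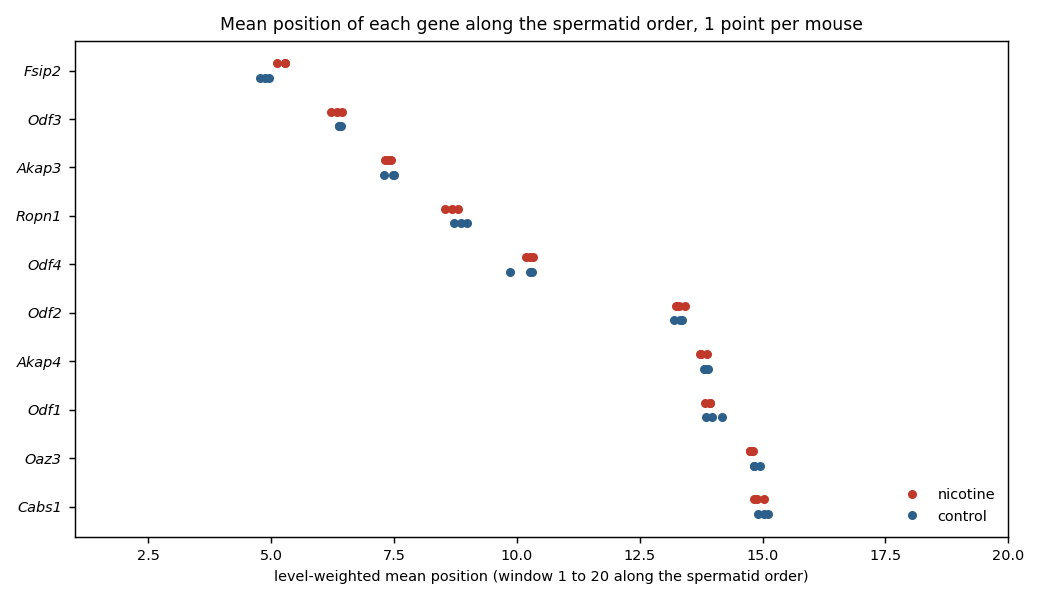
CPM-weighted mean position of each gene along the 20 windows (horizontal axis, early to late), 1 point per mouse with nicotine mice drawn above control mice. Fsip2 lay earliest and Oaz3 and Cabs1 latest, and the groups were apart in Fsip2 and in Oaz3 alone.

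The mean positions did not pass the test between nicotine and control mice for any gene (exact permutation test, lowest p = 0.1, adjusted p = 0.5), and 3 against 3 mice cannot go below 0.1. Fsip2 was at 5.27, 5.11 and 5.29 in nicotine mice, against 4.78, 4.87 and 4.95 in control mice, without overlap, a difference of 0.359 windows. The highest window of Fsip2 was window 1 in every mouse, so its mean position also weights its low levels in later windows and marks no later peak. The share of all genes without overlap in mean position was not computed. Oaz3 was at 14.74, 14.75 and 14.80 in nicotine mice, against 14.82, 14.83 and 14.95 in control mice, without overlap, a difference of −0.101 windows. The cells themselves had mean windows of 10.19, 10.33 and 10.92 in nicotine mice and 10.97, 10.44 and 10.10 in control mice, which overlapped.

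Likeness was measured as Pearson's r of mean log2(CPM + 1) levels over the 15 named classes, among 6056 genes. Oaz3 was most like Smcp, which codes for a mitochondrial capsule protein of sperm (r = 0.997), and 1700034I23Rik (0.993), and Cabs1 was most like Lelp1 (0.995) and Spem1, a protein of spermatid maturation (0.994). Akap4 was most like 1700001K19Rik (0.994) and 1700029H14Rik (0.993). Odf1 was most like Acsl1, a fatty acid CoA ligase (0.990), and Actl11 (0.989), and Odf2 was most like Nup35, a nuclear pore protein (0.985), and Cystm1 (0.977). Ropn1 was most like Spata19, a mitochondrial protein of sperm (0.996), and Fam229a (0.994). Akap3 was most like Tssk1, a testis-specific kinase (0.991), and Spag4 (0.985), and Odf3 was most like 1700001K23Rik (0.984) and 1700093K21Rik (0.984). Fsip2 was most like Gramd1c (0.983) and Lrrc6, linked to cilia and flagella (0.978), and Odf4 was most like Aven (0.947) and Lrrc9 (0.946). These correlations describe classes of the same libraries.

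The 28 related genes, which hold other tail, anchoring and glycolytic genes, were as spread in time. Odf3l2 was at 0 in every stage. Of the other 27, 14 were highest in CPM in stages 1 to 4 and 13 in stages 5 to 8. Ldhc, the testis lactate dehydrogenase, was highest in the shallow stage 3 at 6725 ± 215 CPM (SD, n = 6), near its 6596 CPM in stage 1. Ropn1l, a paralog of Ropn1, was also highest in stage 3, at 3393.5 ± 212 CPM, and was at 2995 CPM in stage 1. Prkar2a, a regulatory subunit of protein kinase A, was highest in stage 7 at 1392 ± 61.2 CPM. Spa17, a sperm protein with an anchoring protein binding domain, and Gapdhs, the sperm glyceraldehyde-3-phosphate dehydrogenase of the fibrous sheath, were highest in stage 8 at 3408 ± 227 and 5077 ± 160.2 CPM.

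Outside the spermatids, transcripts of these genes can come from the cell or from free RNA in the droplet. Free RNA from broken late spermatids would carry the genes together with Prm1, Prm2, Tnp1, Tnp2 and Smcp, which made up 21.2% of the UMIs of stage 6. These 5 transcripts made up 1.16% of UMIs of Sertoli-like cells in nicotine mice and 1.67% in control mice, and 0.401% of those of Leydig-like cells in nicotine mice and 0.468% in control mice. Each gene was therefore given as UMIs per 1000 UMIs of the 5 transcripts. Leydig-like cells, whose lineage does not make sperm tails, served as the measure of free RNA. For Odf2, whose product has forms at the centrosome of other cells, their ratio can also hold transcripts of their own. Their median depth was 6487.5 to 7278 UMIs per cell in nicotine mice and 7035 to 8185 in control mice.

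In Sertoli-like cells (1066 to 1147 median UMIs in nicotine mice and 1044 to 1239.5 in control mice), all 10 genes overlapped their range in Leydig-like cells. Odf2 was at 73.8 ± 18.7 in Sertoli-like cells and 70.8 ± 19.9 in Leydig-like cells (SD, n = 6). Oaz3 was at 24.5 ± 2.99 in Sertoli-like and 23.5 ± 6.19 in Leydig-like cells, and Ropn1 at 28.6 ± 5.83 and 24.7 ± 6.46 in the same order. In stromal cell-like cells all 10 overlapped as well. A ratio within the range of Leydig-like cells was not read as expression, and it cannot show that expression is absent.

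Fsip2, Odf4 and Odf2 lay above Leydig-like cells in early spermatocyte-like cells, cluster 15 and cluster 8. In early spermatocyte-like cells, which carry meiotic prophase genes, Fsip2 was 7.01 times, Odf4 5.61 times and Odf2 2.28 times the ratio in Leydig-like cells, without overlap over the mice. The values were 12.4, 8.54 and 3.25 times in cluster 15, a joint cluster with markers of both early and late spermatocytes, Piwil1, Pou5f2 and Mybl1 among them. The other 7 genes overlapped Leydig-like cells in both classes. In Leydig-like cells, with 37 to 83 cells per mouse, Odf4 had too few UMIs to pass the low-count filter of the tests given below. Its multiples of their ratio therefore rest on few UMIs.

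In late spermatocyte-like cluster 8, which carried Ccna1, Hspa2 and Aurka, Cabs1 alone overlapped Leydig-like cells, at 0.81 times their ratio. The other 9 genes did not overlap them. Odf4 was at 21.7 times, again over few UMIs in Leydig-like cells. Fsip2 was at 16.7 times, Odf2 at 7.59 times, Akap3 at 7.14 times and Ropn1 at 5.26 times. Odf1, Akap4, Odf3 and Oaz3 were at 3.10, 2.99, 2.78 and 2.42 times. In CPM, Fsip2 was at 218 ± 23.3 in early spermatocyte-like cells, 322 ± 33.6 in cluster 15, 301 ± 24.3 in cluster 8 and 416 ± 31.4 in stage 1 (SD, n = 6). Odf4 was at 66.4 ± 9.86, 84.4 ± 9.39, 144.6 ± 6.05 and 131 ± 5.43 CPM in the same classes, so that its mean in cluster 8 was above that in stage 1. In the low-UMI late spermatocyte-like cells Fsip2 alone did not overlap Leydig-like cells, at 2.51 times their ratio, while Odf4 at 1.59 times and Odf2 at 1.22 times overlapped them.

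**Figure D4:**
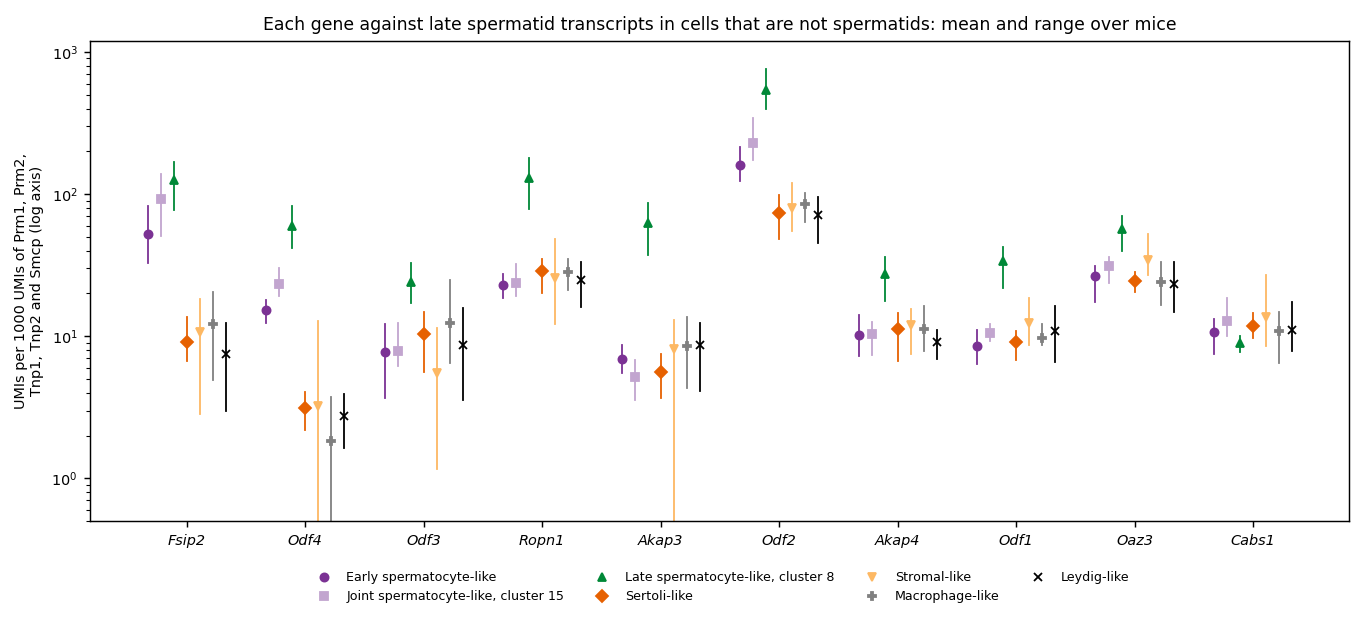
UMIs of each gene per 1000 UMIs of Prm1, Prm2, Tnp1, Tnp2 and Smcp (log axis) in cells outside the spermatid stages, as the mean and the range over the 6 mice (5 mice in macrophage-like cells, without nicotine mouse 1, which had 6 such cells). A line that reaches the lower edge includes a mouse at 0. Fsip2, Odf4 and Odf2 lay above Leydig-like cells in early spermatocyte-like cells and cluster 15, and every gene but Cabs1 in late spermatocyte-like cluster 8.

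Between nicotine and control mice, UMIs of a class were summed per mouse and tested across all genes with the quasi-likelihood test of edgeR and Benjamini-Hochberg adjustment, with calls at an adjusted p under 0.05. In the 8 spermatid stages all 10 genes passed the low-count filter and 0 of the 80 tests were called, where 0% of all genes were called in each stage. At an unadjusted p under 0.05, edgeR had 3 of the 80, and 307 to 566 genes per stage over all genes, while DESeq2 also called 0. In stages 1 to 6 the log2 fold changes lay between −0.23 and 0.21 for the 10 genes, with the lowest unadjusted p at 0.0731. In all kept cells together 0 of the 10 were called, where 0.264% of genes were.

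The 3 tests with an unadjusted p under 0.05 were in the last 2 stages. Cabs1 in stage 7 was at 2491, 2544 and 2486 CPM in nicotine mice, against 2662, 2620.0 and 2652 CPM in control mice, at −0.17 on the log2 scale (SE 0.07, edgeR, adjusted p = 0.734). Ropn1 in stage 8 was at 168, 197 and 202 CPM in nicotine mice, against 222, 220.0 and 216 CPM in control mice, at −0.28 on the log2 scale (SE 0.12, edgeR, adjusted p = 0.990). In the opposite direction, Fsip2 in stage 8 was at 52.7, 44.3 and 50.0 CPM in nicotine mice, against 38.3, 35.9 and 37.0 CPM in control mice, at 0.33 (SE 0.15, edgeR, adjusted p = 0.990). None of the 3 passed over all genes. The groups did not overlap in any of them, which adds no support, since they were picked by their unadjusted p. The share of all genes without overlap in these stages was not computed. Cabs1 in stage 8, also without overlap, was at −0.16 (SE 0.11, edgeR, adjusted p = 0.990).

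In cluster 2, where 0.0579% of genes were called, 0 of the 10 were called. There 6 of the 10 had an unadjusted p under 0.05 with edgeR (4 with DESeq2, which called 0), against 651 of the 6909 genes tested, namely Odf1, Odf2, Oaz3, Akap4, Ropn1 and Cabs1. All 6 were lower in nicotine mice, by log2 fold changes of −0.29 to −0.19. The 5 late transcripts made up 4.41% of UMIs in nicotine mice and 5.18% in control mice of this cluster, and Tnp2 among them was called lower, at −0.57 (SE 0.10, edgeR, adjusted p = 0.00101). Per 1000 of their UMIs, 0 of the 10 genes had a lower mean in nicotine mice. The part of the late transcripts in these values was not tested.

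**Figure D5:**
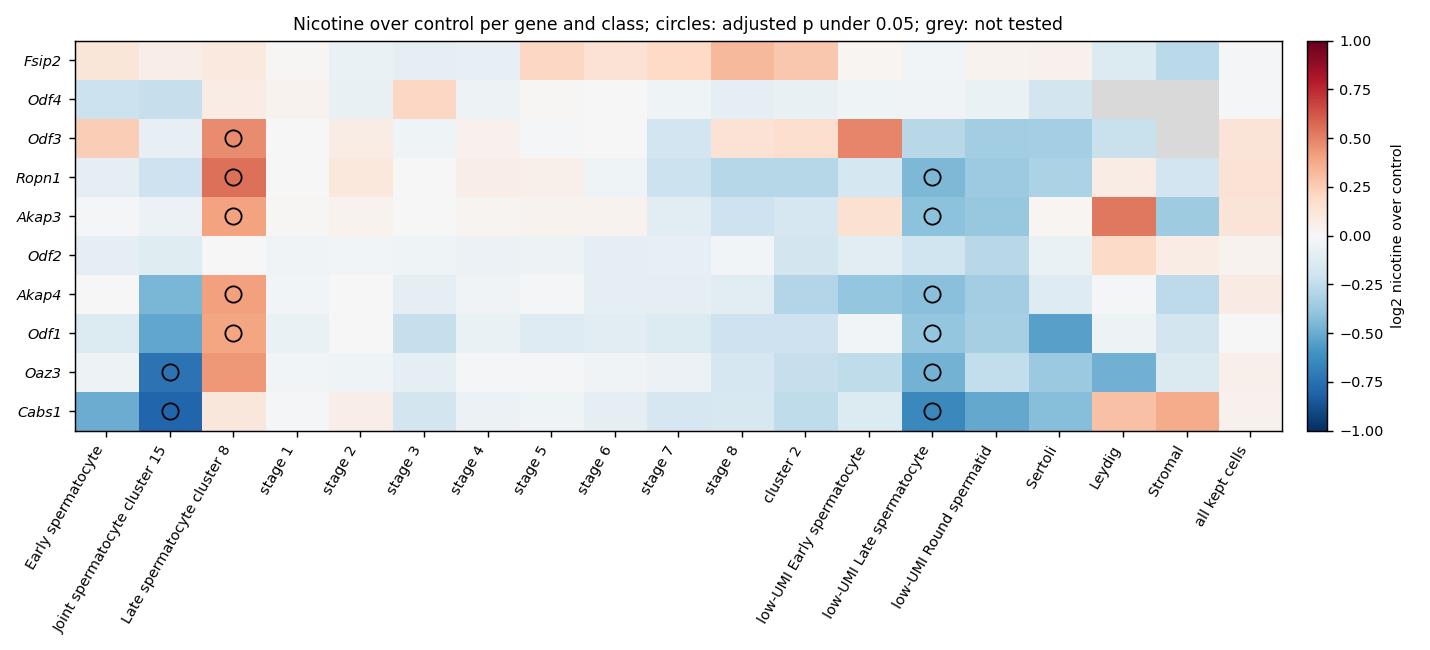
Log2 fold change of nicotine over control mice for each gene (rows) in each class (columns), from edgeR on UMIs summed per mouse, with a circle where the adjusted p was under 0.05 and grey where a gene was not tested. The circles stand in 3 spermatocyte-like classes alone. Those of Oaz3 and Cabs1 in joint cluster 15 and those of 6 genes in the low-UMI late spermatocyte-like cells are lower in nicotine mice, and those of 5 genes in late spermatocyte-like cluster 8 are higher.

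Calls were made in 3 spermatocyte-like classes, where they ran in opposite directions, 13 in all among 187 tests in 19 classes. They were 5 genes higher in nicotine mice in late spermatocyte-like cluster 8, 6 lower in low-UMI late spermatocyte-like cells and 2 lower in joint cluster 15. In each class markers of other stages or late spermatid transcripts moved with the calls, and those values are given beside them. None of the 10 was called in low-UMI early spermatocyte-like cells, where 0.0119% of genes were, or in low-UMI round spermatid-like cells, where 0.00728% were. No tested gene of the 10 was called in Leydig-like cells, where 0.0162% of genes were, or in stromal cell-like cells, where 0% were. Odf4 was not tested in either of these last classes, nor Odf3 in stromal cell-like cells, since their counts did not pass the filter.

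Late spermatocyte-like cluster 8 (2504 cells) had ratios above those of Leydig-like cells for 9 of the 10 genes. Here 9.61% of all genes were called and 6.54% were called higher, and 5 of the 10 were called, all higher. Ropn1 was at 352, 367 and 404 CPM in nicotine mice, against 267, 248 and 270 CPM in control mice, at 0.55 on the log2 scale (SE 0.08, edgeR, adjusted p = 0.000568). Akap3 was at 173, 176 and 164 CPM in nicotine mice, against 128, 127 and 142 CPM in control mice, at 0.40 (SE 0.07, edgeR, adjusted p = 0.00158). Both genes were without overlap between the groups and held with any 1 mouse left out.

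Akap4, the partner of AKAP3 in the sheath, was at 77.4, 73.9 and 75.8 CPM in nicotine mice of cluster 8, against 60.1, 51.7 and 63.0 CPM in control mice, at 0.41 (SE 0.09, edgeR, adjusted p = 0.00593). Odf1 was at 100.4, 83.8 and 97.8 CPM in nicotine mice, against 75.0, 62.1 and 81.5 CPM in control mice, at 0.40 (SE 0.10, edgeR, adjusted p = 0.0174). Odf3 was at 64.3, 66.5 and 74.5 CPM in nicotine mice, against 58.4, 42.4 and 49.6 CPM in control mice, at 0.48 (SE 0.12, edgeR, adjusted p = 0.0177). The groups did not overlap in any of these, and the other 5 genes were not called, with Oaz3 nearest at 0.43 (edgeR, adjusted p = 0.109). Odf2, Odf4, Fsip2 and Cabs1 had log2 fold changes of 0.01, 0.08, 0.09 and 0.11.

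The 5 calls in cluster 8 did not hold under each clustering tried. They held with clustering from 1 seed and ended when the genes used for clustering changed, and why they ended was not tested. With the 10 genes and the related genes among those used for clustering, the class held 478 to 791 cells per mouse and 0 genes of any kind were called in it (1302 had an unadjusted p under 0.05). The adjusted p was then 0.419 for Ropn1, 0.497 for Akap3, 0.640 for Akap4, 0.693 for Odf1 and 0.565 for Odf3. With doublets put back the calls ended for Akap4 (edgeR, adjusted p = 0.0861), Odf1 (0.105) and Odf3 (0.116). The call of Odf1 also ended without nicotine replicate 1 (0.0942), nicotine replicate 3 (0.0620) or control replicate 2 (0.0824). That of Odf3 ended without nicotine replicate 2 (0.0539), nicotine replicate 3 (0.0620), control replicate 2 (0.0564) or control replicate 3 (0.0743).

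Round spermatid markers moved with these calls. All 10 of them were called higher in cluster 8, and they summed to 2033, 2152 and 2150 CPM in nicotine mice, against 1587, 1439.6 and 1527 CPM in control mice, without overlap. Of the 8 late spermatocyte markers, Nek2, Piwil1 and Pou5f2 were called lower, with sums of 3843 to 4141 CPM in nicotine mice and 4091 to 4454 in control mice, which overlapped. Sycp3 of the early spermatocyte markers was called lower, and those summed to 764 to 784 CPM in nicotine mice and 803 to 850 CPM in control mice, without overlap. Of the 10 elongating spermatid markers, Smcp and Hils1 were called higher, with sums of 2486 to 3551 CPM in nicotine mice and 2084 to 3856 CPM in control mice, which overlapped. No marker of these lists was at 0. The median UMIs per cell were 13600 to 15222 in nicotine mice and 16334 to 16803 in control mice. The part of these differences in the 5 calls was not tested.

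Of the related genes, 6 were called in cluster 8, all higher. Tssk4, a testis-specific kinase, was at 0.61 (SE 0.08, edgeR, adjusted p = 0.000341), and Odf3l1, a paralog of Odf3, was at 0.52 (SE 0.08, edgeR, adjusted p = 0.000708). Spag4, a nuclear envelope protein that binds ODF1, was at 0.48, and Aldoart1, a testis aldolase, was at 0.34. The other two, Fsip1 and Hk1, were at 0.30 and 0.26.

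The low-UMI late spermatocyte-like cells were 4 clusters with 10264 cells in all. Their median UMIs per cell were 902.5 to 960.0 in nicotine mice and 844.5 to 1074 in control mice. The 4 clusters were not alike, with median mitochondrial percents of 0.126, 7.72, 0.422 and 0.425. In the same order, 50.2%, 42.3%, 54.6% and 56.5% of their cells came from nicotine mice. The part of this makeup in the calls was not tested. In the class 3.01% of all genes were called and 2.56% were called lower, and 6 of the 10 genes were called, all lower. The groups did not overlap in any of the 6, which were picked by their test. The share of all genes without overlap was not computed there. Cabs1 was at 152, 172 and 159.8 CPM in nicotine mice, against 236, 246 and 253 CPM in control mice, at −0.65 on the log2 scale (SE 0.09, edgeR, adjusted p = 7.98e-06). Oaz3 was at 349.8, 323 and 365 CPM in nicotine mice, against 434, 433 and 530.2 CPM in control mice, at −0.48 (SE 0.09, edgeR, adjusted p = 0.000771). Akap4 was at 172.5, 158 and 168 CPM in nicotine mice, against 192.5, 225 and 228 CPM in control mice, at −0.42 (SE 0.09, edgeR, adjusted p = 0.00383). These 3 calls held under each of the 14 alternatives tried, with adjusted p up to 0.0467.

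Ropn1 in these cells was at 476, 531 and 539 CPM in nicotine mice, against 606, 723 and 715 CPM in control mice, at −0.45 (SE 0.08, edgeR, adjusted p = 0.000593), and its call ended when the genes entered the clustering (0.0602). Akap3 was at 126, 129 and 132 CPM in nicotine mice, against 147, 165 and 182.5 CPM in control mice, at −0.41 (SE 0.10, edgeR, adjusted p = 0.0105). Odf1 was at 135, 117.5 and 133 CPM in nicotine mice, against 159.9, 148 and 180.4 CPM in control mice, at −0.39 (SE 0.10, edgeR, adjusted p = 0.0185). The call of Akap3 ended with DESeq2 (adjusted p = 0.0658), with the genes in the clustering (0.106), and without nicotine replicate 1 (0.0923), nicotine replicate 2 (0.0508) or control replicate 3 (0.176). That of Odf1 ended with DESeq2 (0.0990), with the genes in the clustering (0.0811), and without nicotine replicate 1 (0.0658), nicotine replicate 2 (0.176) or control replicate 3 (0.252).

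Spermatid transcripts moved with these 6 calls too. Of the 10 elongating spermatid markers 7 were called lower, among them Tnp2, Prm2, Smcp and Lelp1, with sums of 12243 to 16037 CPM in nicotine mice and 16811 to 21581 CPM in control mice, without overlap. Of the 10 round spermatid markers Izumo2, Lyzl6 and Tssk1 were called lower, with sums of 1406 to 1431 CPM in nicotine mice and 1461 to 1832 CPM in control mice, without overlap. None of the 8 late spermatocyte markers was called. No marker of these lists was at 0. The 5 late transcripts summed to 11847.5, 10739.5 and 14428 CPM in nicotine mice, against 19039.8, 14728 and 19353.5 CPM in control mice. Per 1000 of their UMIs the groups overlapped for all 6 called genes, and all 6 overlapped Leydig-like cells. Of the 302 genes called lower, 175 were more than 2-fold higher in stage 7 or 8 than in the class, against 8.25% of the genes tested. The part of free RNA in these calls was not tested.

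Of the related genes, 7 were called in the low-UMI late spermatocyte-like cells, all lower. Prkar2a was at −0.61 (SE 0.12, edgeR, adjusted p = 0.00229), Spag4 at −0.55 and Akap1, an anchoring protein of mitochondria, at −0.53. Txndc2, a sperm thioredoxin, was at −0.48, and Gapdhs, Tssk4 and Spa17 were at −0.47, −0.46 and −0.29. Spag4 and Tssk4 were thus higher in cluster 8 and lower in the low-UMI cells, as were Odf1, Akap3, Akap4 and Ropn1. The difference between the classes was not tested.

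In joint cluster 15 (1494 cells), where 0.124% of genes were called, 2 of the 10 were called, both lower. Oaz3 was at 97.1, 73.2 and 90.3 CPM in nicotine mice, against 160.3, 133 and 143 CPM in control mice, at −0.74 on the log2 scale (SE 0.12, edgeR, adjusted p = 3.87e-05). Cabs1 was at 38.1, 24.2 and 42.9 CPM in nicotine mice, against 52.1, 68.4 and 64.3 CPM in control mice, at −0.79 (SE 0.17, edgeR, adjusted p = 0.00735). The groups did not overlap for either gene. Without nicotine replicate 2 neither was called (edgeR, adjusted p = 0.0601 for Oaz3 and 0.485 for Cabs1). The call of Cabs1 also ended without control replicate 2 (0.0689) or control replicate 3 (0.0605), and with DESeq2 (0.406).

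The late spermatid transcripts were lower in cluster 15 as well. Smcp had a log2 fold change of −0.78 and Prm2 of −0.64, both called (edgeR, adjusted p = 0.00735 and 0.000990), while Tnp1 at −0.52, Prm1 at −0.46 and Tnp2 at −0.43 were not called. The elongating spermatid markers, of which Lelp1, Smcp and Prm2 were called lower and none was at 0, summed to 2635 to 4165 CPM in nicotine mice and 4000 to 5561 CPM in control mice, which overlapped. The 5 transcripts summed to 2909, 2417 and 3838 CPM in nicotine mice, against 5168, 3671 and 4502 CPM in control mice. Per 1000 of their UMIs, Oaz3 was at 33.4, 30.3 and 23.5 in nicotine mice and 31.0, 36.2 and 31.8 in control mice, while Cabs1 was at 13.1, 10.0 and 11.2 in nicotine mice and 10.1, 18.6 and 14.3 in control mice. On that scale the groups overlapped for both genes. Of the 13 genes called in cluster 15, all lower, 13 were more than 2-fold higher in stage 7 or 8 than in the class, against 9.78% of the genes tested. The part of free RNA in these calls was not tested.

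Fsip2, Odf4 and Odf2 were not called in any spermatocyte-like class tested. In cluster 15, Odf2 was at −0.12, Odf4 at −0.23 and Fsip2 at 0.07 on the log2 scale. In early spermatocyte-like cells, where 0% of genes were called (274 had an unadjusted p under 0.05, and DESeq2 called 0), 0 of the 10 were called. Cabs1 had the lowest log2 fold change there, at −0.50 (edgeR, adjusted p = 0.999). In Sertoli-like cells, where 0% of genes were called (261 had an unadjusted p under 0.05, and DESeq2 called 0), 0 of the 10 were called.

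The UMIs per cell of the genes outside the spermatids were mostly lower in nicotine mice, without passing the test (exact permutation test over mice, lowest adjusted p = 0.267). In joint cluster 15 they were lower for 10 of 10 genes and without overlap for 6, against 17.8% of all genes with at least 10 CPM. In early spermatocyte-like cells they were lower for 8 genes and without overlap for 1, against 8.91% of all genes. In Sertoli-like cells they were lower for 9 genes and without overlap for 5, against 6.92% of all genes, beside the lower share of the 5 late transcripts there. With the joint Sertoli and spermatocyte cluster included, a setting added after seeing the data, 2 genes were without overlap there. In CPM the count without overlap was 3 in Sertoli-like cells, 4 in joint cluster 15 and 0 in early spermatocyte-like cells. The share of all genes was not computed for these settings. In late spermatocyte-like cluster 8 the UMIs per cell were lower for 4 genes and without overlap for 3, Odf2, Odf4 and Fsip2, against 70.4% of all genes. The 5 genes called higher in CPM in cluster 8 overlapped between the groups in UMIs per cell. Ropn1 was there at 6.46 ± 0.621 UMIs per cell in nicotine mice and 5.80 ± 0.382 in control mice, and Akap3 at 2.95 ± 0.291 in nicotine mice and 2.92 ± 0.138 in control mice (SD, n = 3 each).

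Of the 28 related genes, 27 were tested in all kept cells and 0 were called, and none was called in a spermatid stage.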

How the data were processed

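The deposited matrices give UMI counts as whole numbers for each gene in each cell barcode, not normalized, made with Cell Ranger 7.2.0 against GRCm38 (mm10), per the submitters' processing notes and the file headers; the deposited barcode and feature lists give their names, and how the authors chose barcodes is a step not given in the sources used here. All 6 libraries entered, and 0 columns were left unmapped. Whether counting used strand is likewise not given; genes on the other strand overlap Odf2, Odf3 and Oaz3.

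Barcodes were kept from 500 UMIs and 250 genes upward when mitochondrial genes held under 20% of UMIs. Doublets were removed by Scrublet score at 0.8% per 1000 cells (scanpy 1.11.5), 8.62% to 9.76% of cells per library. Counts were scaled to 10000 per cell, and clusters came from 2000 variable genes, 30 components, 15 neighbours per cell and Leiden at resolution 1, with no batch integration; the 10 genes and the related list were left out of the variable genes. Leiden was run to convergence from 10 seeds and the best partition kept (igraph 0.11.9). That setting was chosen after results of earlier, unconverged clusterings had been seen, whose borders moved with rounding. Names rest on 3 or more markers, each 1.5-fold or more over other cells and present in 10% or more of the cluster; cell classes were rebuilt and can differ from the study's. A cluster with early and late spermatocyte markers was kept apart as a joint cluster. Germ cell clusters with median UMIs below 2467 are called low-UMI and were kept out of the stages, as was a spermatid cluster with Sertoli cell genes; a joint Sertoli and spermatocyte cluster was kept out of the Sertoli-like cells.

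Sums of UMI counts over the cells of a class in a mouse were tested with edgeR 4.0.16 (filterByExpr, TMM, robust quasi-likelihood; R 4.3.3), adjusted over all genes of a class, with DESeq2 1.42.0 as an alternative, in classes with at least 20 cells in every mouse. Macrophage-like cells were not tested, since nicotine mouse 1 had 6. Stage steps were log2(CPM + 1) differences within a mouse, adjusted over 70 steps; positions were adjusted over the 10 genes, and UMIs per cell outside the spermatids over genes and classes. The edgeR step was tested on simulated data. Of simulated 1.5-fold changes it called 39.0% in stage 6, 42.5% in joint cluster 15 and 21.1% in Sertoli-like cells. Of 2-fold changes it called 72.7%, 77.2% and 57.6% in the same order. A gene not called can therefore still have changed by such amounts. Named genes are the 10, at most 4 called related genes per class and any others called there, the 5 late transcripts, and the 2 genes most like each of the 10 among genes with at least 100 CPM in a class. The members, lists and tests were chosen with earlier results of these data known. Promoter windows are RefSeq's and gene positions GENCODE's, both on GRCm38. The labels call the mice biological replicates and give no batch.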

Additional observations from a re-analysis of the deposited data

Results flagged for a closer look

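Over the 10 genes together, 80 values (10 mean positions and 70 stage steps), each measured in 6 mice, were searched for 1 mouse far from the other 5, with a gap to the nearest of them above Dixon's critical value; chance gives about 1 in 20, and 6 were found. Control mouse 3 had a mean position of 9.87 for Odf4, where the other 5 mice lay between 10.20 and 10.33. Its log2 step of Odf4 between stages 4 and 5 was −0.40, where the others lay between −0.26 and −0.18. Nicotine mouse 1 had a log2 step of −0.63 for Odf4 between stages 7 and 8, where the others lay between −0.34 and −0.19. Nicotine mouse 3 had a log2 step of 0.94 for Oaz3 between stages 3 and 4, where the others lay between 0.66 and 0.76. Control mouse 1 had a log2 step of 0.32 for Oaz3 between stages 5 and 6, where the others lay between 0.40 and 0.43. Control mouse 2 had a log2 step of 0.57 for Odf2 between stages 6 and 7, where the others lay between 0.68 and 0.73.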

How the results depend on the processing

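The number of the 10 genes called between nicotine and control mice moved most in late spermatocyte-like cluster 8 (5 called), where it was 2 with doublets put back, 0 with the genes in the clustering and 3 to 6 with 1 mouse left out. In low-UMI late spermatocyte-like cells (6 called) it was 3 with the genes in the clustering and 4 to 7 with 1 mouse left out. In joint cluster 15 (2 called) it was 1 with DESeq2 and 0 to 2 with 1 mouse left out, and in low-UMI round spermatid-like cells (0 called) it was 1 with no filter on low counts. RLE scaling, a minimum of 1000 UMIs per cell, and Sertoli-like cells with their joint cluster, added after seeing the data, moved no such count by over 1.5 times. Over all genes, cluster 8 had 1339 calls, 907 with DESeq2, 777 with clustering from 1 seed, 0 with the genes in the clustering and 624 to 1341 with 1 mouse left out. Low-UMI late spermatocyte-like cells had 355 calls, 141 with DESeq2, 104 with the genes in the clustering and 117 to 628 with 1 mouse left out. Joint cluster 15 had 13 calls, 5 with DESeq2, 65 with doublets put back and 1 to 24 with 1 mouse left out. The cause of these moves was not tested.

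Deviations of samples with the same number did not correlate above 0.1 in every pair of any class. In the pair numbered 2 they correlated at 0.37 in all kept cells, 0.29 in low-UMI round spermatid-like cells and 0.23 in stage 4. The other pairs lay at −0.05 and 0.03 in all kept cells. What same-numbered samples share is not given by the labels. With a replicate block, 2 of the 10 genes were called in joint cluster 15 and 6 in cluster 8. In low-UMI late spermatocyte-like cells 8 were called, among 715 genes in all.

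Of the stage steps, 39 of the 40 that could be matched passed when the genes entered the clustering (74.9% of cells in the same class), with the step between stages 7 and 8 reversed to −0.26 for Akap4 and to 0.29 for Akap3, 65 of 70 with clustering from 1 seed (96.9% of cells), and 0 with any 1 mouse left out, which 5 mice do not allow. Both settings for calls, and the 1-seed setting for steps, were added after seeing the data. So was the scale of UMIs per cell, on which 60 passed and 25 steps that passed in CPM changed sign. On the log2 scale these were −0.56, −0.13, −0.15 and −0.036 for Odf1 between stages 4 and 8, −0.28, −0.12 and −0.17 for Odf2 between 4 and 7, −1.58 and 1.32 for Odf4 into and out of stage 3 and −0.27 and −0.43 between 5 and 7. They were −0.42 and −0.15 for Oaz3 between 4 and 6, −0.55 for Akap3 and −0.80 for Ropn1 between 4 and 5, −0.17, −0.051, −0.52 and −0.41 for Akap4 between 4 and 8, 0.96 for Fsip2 between 3 and 4 and −0.32 and −0.24 between 6 and 8, and −0.25, −0.28 and −0.049 for Cabs1 between 5 and 8. Of the steps that did not pass in CPM, that of Odf3 between 7 and 8 was −0.24 and that of Fsip2 between 5 and 6 was −0.19 on this scale. The different UMI totals per cell of the stages lie in the construction of that scale.

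Median UMIs per cell ran from 2718.5 in stage 8 to 19142 in stage 4, and were below 2467 in the low-UMI classes; how far depth limits each class was not compared. Free RNA limits what a low level outside the spermatids can show.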

Other observations

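Over the 15 named classes, the Pearson correlation of mean log2(CPM + 1) levels between the 10 genes described which of them ran together, across classes of the same libraries. The late genes were most alike, with 0.99 for Odf1 and Oaz3, 0.99 for Oaz3 and Akap4 and 0.94 for Oaz3 and Cabs1. Odf3, Akap3 and Ropn1 formed another run of like profiles, with 0.94 for Odf3 and Akap3, 0.93 for Akap3 and Ropn1 and 0.90 for Odf3 and Ropn1. Fsip2 ran against Cabs1 at −0.71 and against Akap4 at −0.55, and its highest value with any of the other 9 genes was 0.30, with Odf4. Genes named for the same structure were not alike by name alone, as Odf1 had 0.93 with Odf2 but 0.31 with Odf3 and 0.47 with Odf4.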
